A study of Mus musculus with 39 samples.

Results

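The genes described here are 10 members of the regulated secretory pathway: Pomc, Chga, Chgb, Scg2, Scg3, Scg5, Vgf, Pcsk1, Pcsk1n and Npy. They were picked by symbol from the 25239 genes of the table of wild-type cells and the 25241 genes of the table of tdTomato cells, and all 10 were listed in both tables. The choice was not blind to the measurements. Pomc was included because its level was higher with Rbfox3 crRNA 5 and with the tdTomato crRNAs, so its values in those 3 comparisons are given as a description and without a test. A gene was tested where its mean over the libraries of a table reached 1 FPKM (fragments counted on the gene, scaled by its length in kilobases and by the depth of the library), which 8 members did in each table. Pcsk1 and Npy did not.

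Neuroendocrine cells and neurons store peptide messengers in dense-core secretory granules. Precursor proteins such as Pomc and Vgf are packed together with granins, acidic proteins that condense in the granule, and are then cut by prohormone convertases into the peptides that leave the cell when calcium rises. Pomc, the precursor of corticotropin, melanocyte-stimulating hormone and beta-endorphin, is best known from the pituitary and from the arcuate nucleus of the hypothalamus.

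Poly(A) RNA of N2a cells, a mouse neuroblastoma line, was sequenced 48 h after transfection of plasmids that encode the RNA-cutting nuclease RfxCas13d and 1 crRNA, the guide RNA that directs it to a transcript. The libraries numbered 39, in 13 groups of 3. In wild-type (WT) N2a cells the targeting groups received Sik3 crRNA 1 or 8, Map2 crRNA 1 or 3, Mapt crRNA 4 or 6, or Rbfox3 crRNA 3 or 5. In N2a cells that stably express tdTomato, a red fluorescent protein, they received tdTomato crRNA 4 or 7. The reference in each case was a non-targeting (NT) crRNA with the same nuclease, so that every group carried RfxCas13d. The library names placed Rbfox3 crRNA 5 with 3 NT libraries of its own (the N set), and the other 7 crRNAs of WT cells with another 3 NT libraries (the WT set), although the labels give both as WT N2a cells. The library names further carried a series code. Of each group of the WT set, 2 libraries were of series LDK and 1 of series LDL, all 6 libraries of the N set were of series LDL, and each tdTomato group had 1 library of series LDM and 2 of series LDK. The labels did not say whether the 3 libraries of a group came from separate cultures, so the p-values measure the spread between libraries, which may be technical. For its tests of knockdown by RT-qPCR the study took GFP-positive cells from a sort, and whether the sequenced cells were sorted is not given in the sources used here. In such bulk RNA fewer cells expressing a gene and less RNA per cell cannot be told apart.

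The libraries of WT cells held 10405722 to 16874763 reads counted to genes and those of the tdTomato line 2199738 to 4300019, as recovered from the FPKM values. The targets Sik3, Map2, Mapt and tdTomato fell with each of their own crRNAs by 0.95 to 2.77 on the log2 scale, whereas Rbfox3 stood at 0.0697 ± 0.0579 FPKM with its crRNA 3 and 0.0468 ± 0.0357 FPKM with its crRNA 5 (SD, n = 3 each), against 0.0103 ± 0.00896 and 0.0323 ± 0.0325 FPKM in their NT libraries, too low to check these labels. Of 12 markers of sympathoadrenal neuroblastoma, 11 had a mean of at least 1 FPKM in the WT cells, and the 12 summed to 763-974 FPKM per library. Of these 11, 3 to 6 rose and 2 to 5 fell with each guide of the WT set. Over all tested genes 19.1% to 25.8% rose and 13.4% to 23.9% fell with these guides. With Map2 crRNA 3, 7 of these markers were higher and 2 lower than with Map2 crRNA 1 (median 0.28). Over all genes 21.3% were higher and 14.5% lower between the Map2 guides. Ddc, which makes dopamine, fell with all 7 guides of that set, by 0.36 with Map2 crRNA 3 and by 1.46 with Map2 crRNA 1. Of 8 pituitary markers only Pitx1 and Tshb reached that mean, and the 8 summed to 4.83-9.8 FPKM. The sum was 8.41-9.8 FPKM under Rbfox3 crRNA 5, against 6.91-7.79 FPKM in its NT libraries. It was 5.91-9.17 FPKM with Rbfox3 crRNA 3, 5.83-6.62 FPKM with Map2 crRNA 3 and 5.37-6.77 FPKM with Mapt crRNA 6. The NT libraries of these guides gave 6.15-6.31 FPKM. In the tdTomato line the sum was 8.17-11 FPKM with crRNA 4 and 11.2-11.4 FPKM with crRNA 7, against 9.1-12.4 FPKM with NT. The part of these markers in the members' differences was not tested.

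The promoters of 3 members are shown first, because the results turn on Pomc, which differed most between guides, and on Scg2 and Chgb, which differed in opposite directions between the NT libraries of both sets. The sequences are those of RefSeq on GRCm38.p6, from 250 bases before to 50 bases after its annotated start, for 9 of the 10 members. Vgf had no promoter entry and was not searched. The gene intervals given below come from another annotation, GENCODE, and start further upstream for Scg2 and Chgb. The elements marked in Scg2 and Chgb thus lie before the RefSeq start but inside those intervals. Capitals mark TATAAA in Pomc, 25 bases before the start, and the palindromic cAMP response element TGACGTCA in Scg2 and Chgb, 68 and 72 bases before it.
Pomc, chr12:3954695-3954994, plus strand: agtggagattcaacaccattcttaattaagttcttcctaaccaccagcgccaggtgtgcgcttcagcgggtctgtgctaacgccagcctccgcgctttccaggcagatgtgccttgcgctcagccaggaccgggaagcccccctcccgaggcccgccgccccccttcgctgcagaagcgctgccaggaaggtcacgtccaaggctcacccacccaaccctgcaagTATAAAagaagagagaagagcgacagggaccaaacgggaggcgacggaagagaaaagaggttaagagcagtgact
Scg2, chr1:79439977-79440276, minus strand: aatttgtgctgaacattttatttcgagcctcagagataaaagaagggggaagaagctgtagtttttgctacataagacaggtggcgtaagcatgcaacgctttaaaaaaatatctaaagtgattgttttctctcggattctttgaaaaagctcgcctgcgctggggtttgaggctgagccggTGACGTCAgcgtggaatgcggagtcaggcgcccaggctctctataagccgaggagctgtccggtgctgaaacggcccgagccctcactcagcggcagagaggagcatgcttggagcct
Chgb, chr2:132781392-132781691, plus strand: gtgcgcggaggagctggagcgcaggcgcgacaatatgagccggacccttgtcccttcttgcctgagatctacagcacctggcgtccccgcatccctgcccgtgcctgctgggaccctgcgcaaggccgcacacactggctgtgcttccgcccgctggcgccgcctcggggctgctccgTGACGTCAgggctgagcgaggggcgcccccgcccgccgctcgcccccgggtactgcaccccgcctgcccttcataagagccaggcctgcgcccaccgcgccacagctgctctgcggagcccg
TGACGTCA was present in the windows of Chgb, Scg2 and Pcsk1 and in 1.79% of 32851 mouse promoter windows of the same length, both strands read. TATAAA was present in those of Pomc and Chga and in 13.6% of all windows. AAAGGTCA, an element bound by Nr4a receptors, was present in none of the 9 and in 1.51% of all windows. Other elements, and bases outside these windows, were not searched. A match of letters is a description and no evidence of binding.

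The guides that gave the widest range of Pomc levels are shown for the same reason, as spacers of 22 bases written 5′ to 3′. Each is complementary to its target in coding sequence (GRCm38, Map2 on the plus strand and Rbfox3 on the minus strand).
Map2 crRNA 1, target at chr1:66438258-66438279: actctcaattttcacacgtcca
Map2 crRNA 3, target at chr1:66438316-66438337: gagcattgtcaagtgagccaac
Rbfox3 crRNA 3, target across an exon junction at chr11:118495277-118496366: gcctccataaatctcagcacca
Rbfox3 crRNA 5, target at chr11:118496369-118496390: aaatccatcctgatacacgacc
No spacer of the study came closer than 5 mismatches to any of 29 annotated transcripts of the members, the nearest being Mapt crRNA 4 against Pcsk1. Against Pomc transcripts the fewest mismatches were 6 for Rbfox3 crRNA 3, 9 for Map2 crRNA 1 and 10 for Map2 crRNA 3.

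Pomc (chr12:3954951-3960642 on GRCm38, plus strand) showed the largest differences against NT among the tested members in WT cells. It was highest with Rbfox3 crRNA 5, at 28.1, 26.1 and 29.9 FPKM, against 11.9, 12.8 and 12.4 FPKM in the NT libraries of the N set. These groups did not overlap, and the log2 difference of 1.15 (on log2(FPKM + 0.5), as for all differences below) is one of the values by which Pomc was chosen. With Rbfox3 crRNA 3, which the choice did not use and which was set against other NT libraries, Pomc stood at 25.3, 24.5 and 22.0 FPKM, against 13.0, 10.2 and 11.4 FPKM in the NT libraries of the WT set. All 3 libraries were above their NT libraries, and Pomc rose by 1.03 ± 0.11 on the log2 scale (SE, adjusted p = 1.73e-07, limma with Benjamini-Hochberg adjustment over 11554 genes). Within library series LDK and LDL the difference was 1.08 and 0.92.

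The guides against Map2 moved Pomc in opposite directions relative to the same NT libraries. With Map2 crRNA 3 its FPKM was 18.2, 19.4 and 24.5, above every NT library (log2 difference 0.81, adjusted p = 4.83e-06). With Map2 crRNA 1 it was 5.93, 6.83 and 9.21, below every NT library (-0.63, adjusted p = 4.39e-05). The fall was -0.81 within series LDK and -0.29 within LDL, where each group had 1 library. Mapt crRNA 6 gave 18.3, 17.2 and 16.9 FPKM, again above all NT libraries (0.59, adjusted p = 0.000205).

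For the other guides of the WT set Pomc did not pass the test. Mapt crRNA 4 gave 13.3, 14.8 and 13.7 FPKM, all above the NT libraries (0.27, adjusted p = 0.055). Without NT replicate 1 the difference was 0.38 and passed (adjusted p = 0.0138), and over all its alternatives the adjusted p ran between 0.0138 and 0.208. Sik3 crRNA 1 gave 9.92, 9.55 and 12.0 FPKM (-0.13, adjusted p = 0.349) and Sik3 crRNA 8 gave 11.6, 11.5 and 11.8 FPKM (0.02, adjusted p = 0.898), both overlapping NT.

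Ordered by mean, Pomc in WT cells ran from 28 ± 1.89 FPKM with Rbfox3 crRNA 5 through 23.9 ± 1.76 with Rbfox3 crRNA 3, 20.7 ± 3.36 with Map2 crRNA 3, 17.5 ± 0.744 with Mapt crRNA 6 and 13.9 ± 0.736 with Mapt crRNA 4 to 7.33 ± 1.69 with Map2 crRNA 1 (SD, n = 3 each). Rbfox3 crRNA 3 and Map2 crRNA 3 overlapped, as did Map2 crRNA 3 and Mapt crRNA 6. Sik3 crRNA 8, NT of the WT set and Sik3 crRNA 1 overlapped as neighbours at 11.6 ± 0.172, 11.5 ± 1.45 and 10.5 ± 1.29 FPKM, just under NT of the N set at 12.3 ± 0.441 FPKM. The guides of Map2 thus stood near the top and at the bottom of this order. These levels rest on 129 to 487 Pomc reads per library.

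**Figure D1:**
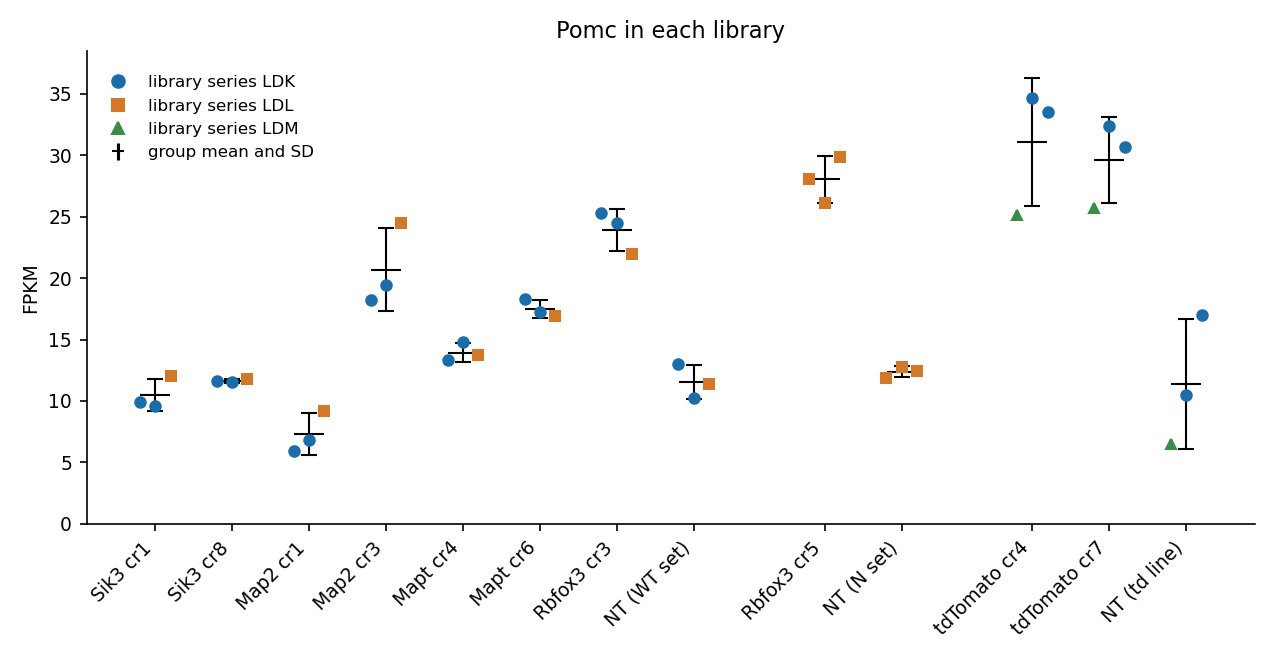
Pomc level in FPKM (vertical axis) in each library of the 13 groups (horizontal axis, targeting crRNAs left of their NT), with colour and marker giving the library series and bars the group mean and SD. Rbfox3 crRNA 5 lies at 26.1-29.9 FPKM, Map2 crRNA 1 at 5.93-9.21 FPKM and the 6 NT libraries of WT cells at 10.2-13.0 FPKM.

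With the tdTomato guides, in the line that expresses the target, Pomc stood at 25.1, 34.7 and 33.5 FPKM with tdTomato crRNA 4 and 25.7, 32.4 and 30.7 FPKM with crRNA 7, against 6.52, 10.5 and 17.0 FPKM in its NT libraries. Both groups lay above all NT libraries, by 1.50 and 1.44 on the log2 scale, values that chose the gene and carry no test. The NT libraries were spread more widely here than in WT cells, and in series LDM and LDK taken alone the differences were 1.87 and 1.32 for crRNA 4 and 1.90 and 1.21 for crRNA 7. The counts behind them were 24 to 167 Pomc reads per library.

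Vgf (chr5:137026392-137033351, plus strand), whose product is induced by nerve growth factor and gives rise to several peptides, was among the most abundant members and rose with every one of the 10 crRNAs. It was highest with Sik3 crRNA 8, at 890, 870 and 864 FPKM, followed by Sik3 crRNA 1, at 783, 768 and 866 FPKM, against 623, 610 and 617 FPKM in the NT libraries of the WT set. Both groups lay above all NT libraries, crRNA 8 by 0.50 ± 0.038 (SE, adjusted p = 3.10e-10). The other guides of the WT set lay closer to NT and still above it in every library. The smallest rise, with Map2 crRNA 1 at 653, 664 and 676 FPKM, was 0.11 (adjusted p = 0.0214). That call was lost without NT replicate 6 (0.09, adjusted p = 0.0899), without Map2 crRNA 1 replicate 2 (0.10, adjusted p = 0.0643) and within series LDK alone (0.09, adjusted p = 0.0666), and over all alternatives its adjusted p ran between 0.00509 and 0.0899. In the N set Vgf stood at 714, 738 and 690 FPKM with Rbfox3 crRNA 5, against 614, 605 and 606 FPKM with NT, without overlap (0.23, adjusted p = 7.49e-05).

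Scg2 (chr1:79434669-79440120, minus strand), secretogranin II, a granin and the precursor of secretoneurin, also rose with every crRNA. In the 21 libraries of the 7 targeting groups of the WT set it lay between 271 FPKM with Rbfox3 crRNA 3 and 321 FPKM with Sik3 crRNA 1, against 251, 237 and 252 FPKM in their NT libraries, without overlap. The rises were narrow in range, 0.16 to 0.31 with an SE of 0.029 and adjusted p between 1.52e-08 and 0.00019. With Rbfox3 crRNA 5 Scg2 was 170, 175 and 168 FPKM, against 156, 151 and 159 FPKM in NT of the N set (0.14, adjusted p = 0.000959). This rise depended on which NT libraries were used, since against all 6 NT libraries of WT cells the difference was -0.18 (adjusted p = 0.295, over all alternatives 0.000837 to 0.295). The same exchange left the direction of Vgf as it was.

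**Figure D2:**
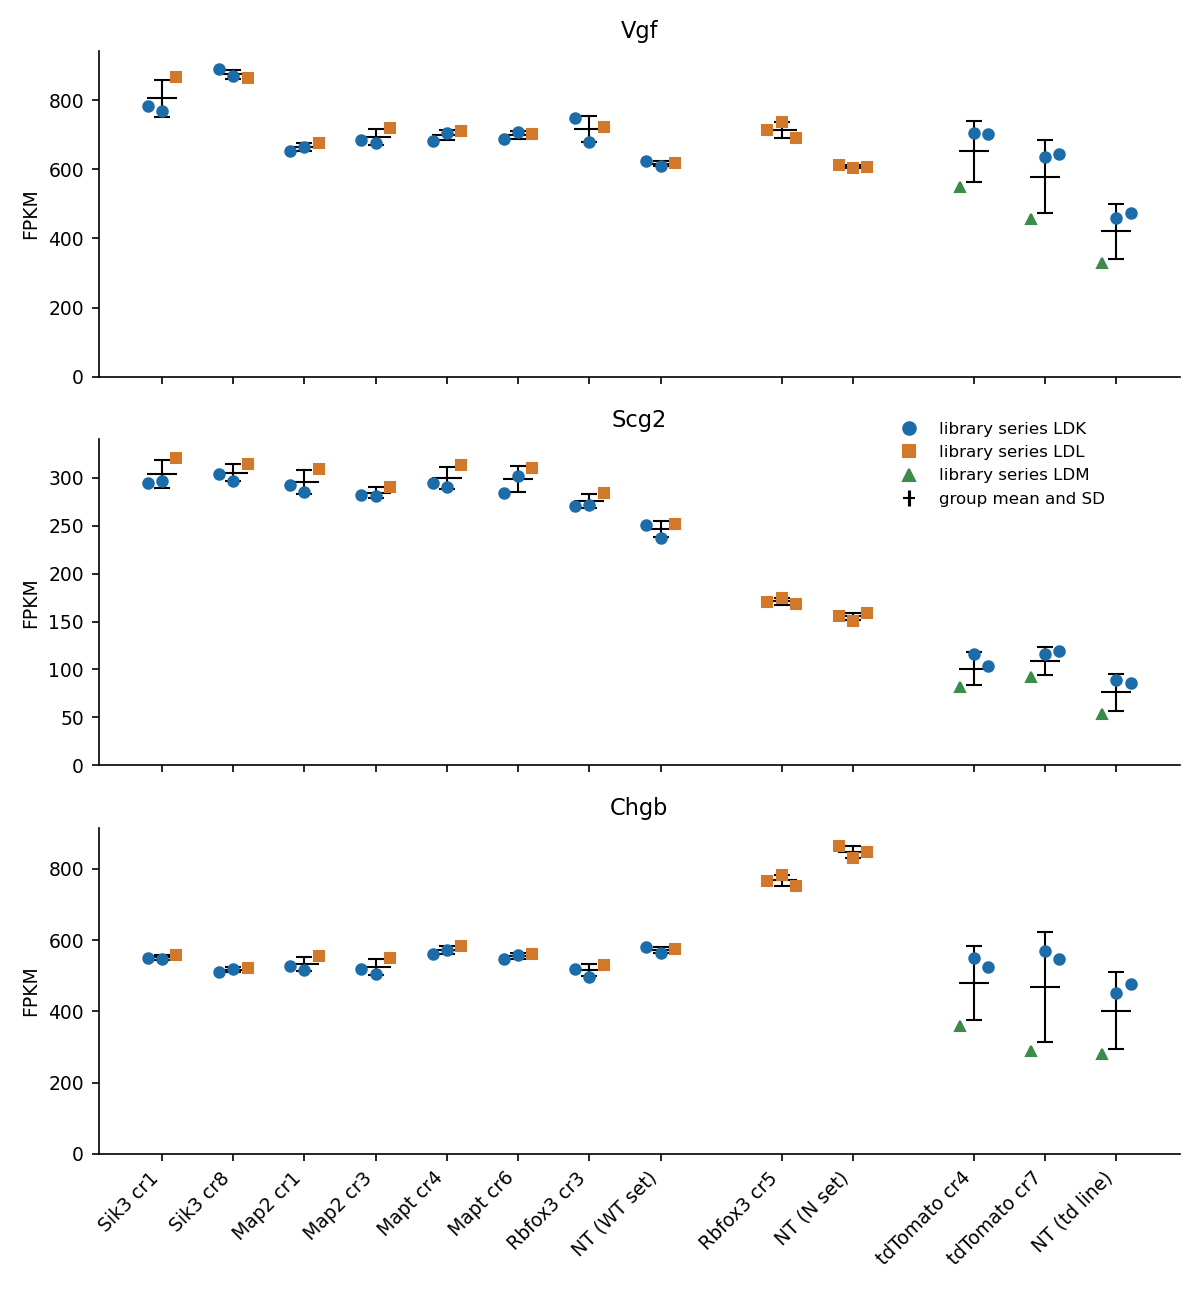
Levels in FPKM (vertical axes, starting at 0) of Vgf, Scg2 and Chgb in each library of the 13 groups, with colour and marker for the library series and bars for the group mean and SD. Vgf lies above NT in all targeting groups of WT cells, while Scg2 is lower and Chgb higher in both groups of the N set than in the 8 groups of the WT set.

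Scg3 (chr9:75643189-75684056, minus strand), which binds chromogranin A and the cholesterol-rich granule membrane, rose with 6 of the 7 crRNAs of the WT set. Sik3 crRNA 1 gave 247, 251 and 254 FPKM, against 208, 201 and 219 FPKM with NT (0.26 ± 0.032, SE, adjusted p = 7.62e-07). The exception was Map2 crRNA 3, at 204, 207 and 216 FPKM, within the NT range (-0.00, adjusted p = 0.995). With Rbfox3 crRNA 5 Scg3 was 193, 202 and 193 FPKM, against 212, 194 and 199 FPKM with NT of the N set (-0.04, adjusted p = 0.419). The rises with Mapt crRNA 6 (0.13) and Rbfox3 crRNA 3 (0.12) did not pass after rescaling of the libraries (0.08, adjusted p = 0.0781, and 0.09, adjusted p = 0.0609).

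Scg5 (chr2:113776362-113829121, minus strand), a chaperone that keeps the convertase Pcsk2 inactive until it reaches the granule, separated the guides more sharply. It rose to 142, 137 and 150 FPKM with Map2 crRNA 1, against 106, 106 and 105 FPKM in the NT libraries of the WT set (0.43 ± 0.047, SE, adjusted p = 6.69e-08), and by 0.28 to 0.31 with both Sik3 crRNAs and with Mapt crRNA 4. Its differences did not pass with Mapt crRNA 6 (0.10, adjusted p = 0.0906), Map2 crRNA 3 (0.05, adjusted p = 0.403) or Rbfox3 crRNA 3 (0.01, adjusted p = 0.939).

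In the N set Scg5 was lower with the targeting guide, at 113, 120 and 122 FPKM, against 137, 120 and 132 FPKM with NT. The groups overlapped, and the fall of -0.13 passed narrowly (adjusted p = 0.0432). It no longer passed without NT replicate 3 (-0.09, adjusted p = 0.192), NT replicate 5 (-0.12, adjusted p = 0.132), Rbfox3 crRNA 5 replicate 1 (-0.10, adjusted p = 0.198) or replicate 2 (-0.14, adjusted p = 0.0629). Over all alternatives the adjusted p ran between 0.00652 and 0.946.

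The chromogranins, acidic proteins of the granule core, were lower than NT or did not pass in WT cells. Chgb (chr2:132781278-132795079, plus strand) fell with 4 of the 7 guides of the WT set. It was 510, 520 and 521 FPKM with Sik3 crRNA 8 and 519, 497 and 531 FPKM with Rbfox3 crRNA 3, against 580, 563 and 575 FPKM with NT. Both groups lay below all NT libraries (-0.15 each, adjusted p = 0.000195 and 0.000224). Map2 crRNA 1 and 3 gave -0.11 and -0.13 (adjusted p = 0.0032 and 0.00121). The falls were small, and Mapt crRNA 4, at 562, 572 and 583 FPKM, overlapped NT (-0.00, adjusted p = 0.988).

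With Rbfox3 crRNA 5 Chgb was 766, 784 and 753 FPKM, against 863, 830 and 847 FPKM in NT of the N set, without overlap (-0.14, adjusted p = 0.00061). Against all 6 NT libraries of WT cells the sign turned (0.10, adjusted p = 0.477, over all alternatives 9.15e-05 to 0.477). Chga (chr12:102554969-102565028, plus strand), chromogranin A, ranged from 77.5 to 101 FPKM over the WT cells and passed with none of the 7 guides of the WT set, with differences between -0.08 and 0.06. With Rbfox3 crRNA 5 its difference was -0.12 (adjusted p = 0.0515), and it passed without NT replicate 5 (-0.14, adjusted p = 0.0473) or Rbfox3 crRNA 5 replicate 2 (-0.14, adjusted p = 0.0399), over all alternatives 0.0359 to 0.627.

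Pcsk1n (chrX:7919822-7924410, plus strand), which encodes proSAAS, a peptide precursor and an inhibitor of the convertase Pcsk1, ranged from 48.5 to 72.4 FPKM in WT cells. It passed against NT with none of their 8 guides (-0.19 to 0.07, SE 0.088). The difference with Map2 crRNA 1 (-0.19) passed as lower with only the groups compared (adjusted p = 0.0304), against all 6 NT libraries of WT cells (-0.26, adjusted p = 0.0087), by voom on the recovered reads (adjusted p = 0.0465) and within series LDK alone (-0.25, adjusted p = 0.00309), over all alternatives 0.00309 to 0.281. Pcsk1 itself (chr13:75089826-75134861, plus strand), the convertase that makes the first cuts in Pomc in the pituitary, was near the limit of detection, with 0.027 to 0.329 FPKM and 2 to 25 reads in each of the 30 libraries of WT cells and 282 reads in all. Pcsk1 reads were found in 4 of the 9 tdTomato-line libraries, 15 in all, and the 3 libraries with tdTomato crRNA 4 held none. Npy (chr6:49822710-49829507, plus strand), neuropeptide Y, was listed at 0 in all 39 libraries.

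Read over the 8 tested members, 4 rose and 0 fell with Sik3 crRNA 1, where 23.6% of all tested genes rose and 21.1% fell. With Sik3 crRNA 8, 4 rose and 1 fell (21.7% and 21.2% of all genes), and with Map2 crRNA 1, 4 rose and 2 fell (25.8% and 23.9%). With Map2 crRNA 3, 3 rose and 1 fell (19.8% and 13.4%), and with Mapt crRNA 4, 4 rose and 0 fell (21.8% and 16.7%). With Mapt crRNA 6, 4 rose and 0 fell (22.2% and 14.6%), and with Rbfox3 crRNA 3, 4 rose and 1 fell (19.1% and 13.4%). The medians over the 8 members ran between 0.04 and 0.20, against 0.01 to 0.05 over all genes, and these 7 comparisons share their 3 NT libraries.

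With Rbfox3 crRNA 5 the counts were balanced. Of the 7 members tested there, Pomc being left out, 2 rose and 2 fell, where 12.6% of all genes rose and 13.1% fell. The median over these 7 members was -0.04, against 0.00 over all genes.

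The difference between the effects of the 2 Rbfox3 guides, each against its own NT libraries, was tested for the same 7 members. It passed in 1 of them, where 5.51% of all genes passed in either direction. The member was Scg3, whose effect was lower with crRNA 5 than with crRNA 3 by -0.16 ± 0.045 (SE, adjusted p = 0.0363). The call was lost under several alternatives, over all of which the adjusted p ran between 0.0212 and 0.191. Guide, set and NT libraries changed together in this contrast and cannot be told apart.

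**Figure D3:**
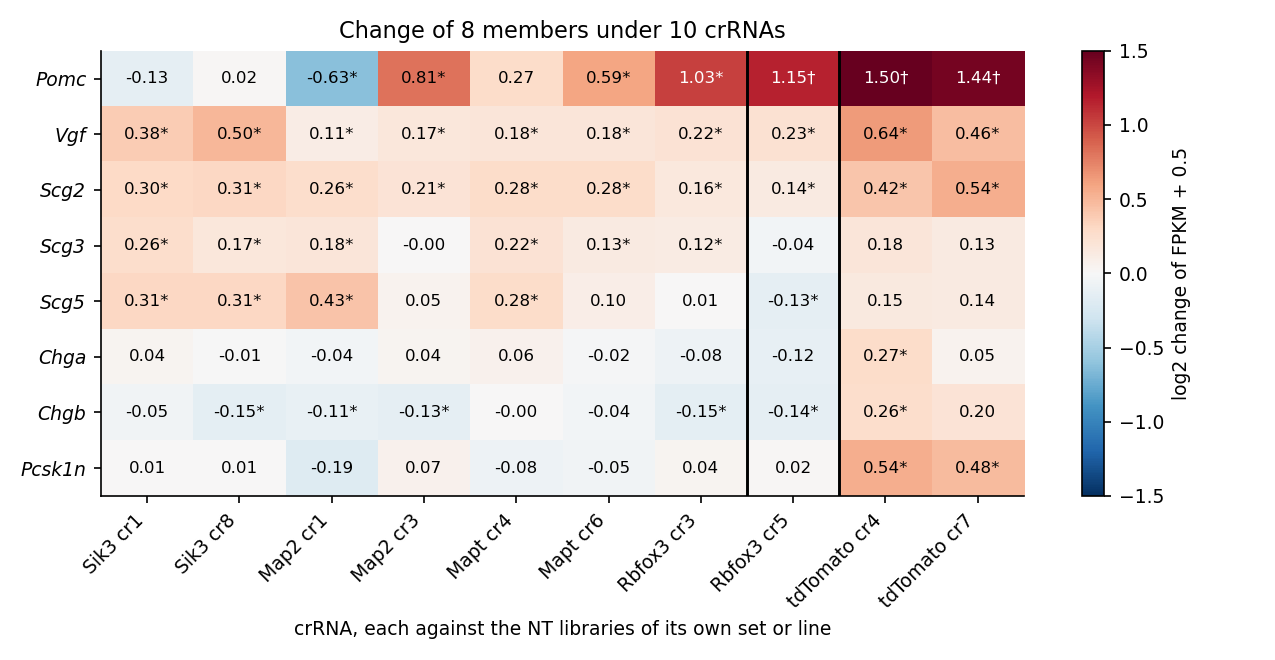
Log2 difference against NT (colour, and the number in each cell) of the 8 tested members (vertical axis) with each of the 10 crRNAs (horizontal axis). An asterisk marks an adjusted p under 0.05 and a dagger the 3 Pomc values that chose the gene and carry no test, and Vgf and Scg2 carry an asterisk with all 10 crRNAs.

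The contrast between both guides of a target subtracts no NT library, although NT libraries entered the shared spread and the series term of the fit. Between Map2 crRNA 3 and Map2 crRNA 1, 2 of the 8 members rose and 2 fell, where 21.3% of all genes were higher and 14.5% lower. Pomc was higher with crRNA 3 by 1.45 ± 0.11 (SE, adjusted p = 7.17e-10), and by 1.49 and 1.37 within series LDK and LDL. Scg5 was lower with crRNA 3, at 105, 108 and 116 FPKM, against 142, 137 and 150 FPKM with crRNA 1 (-0.38, adjusted p = 1.42e-06), and Scg3 was lower too (-0.18, adjusted p = 0.000143). These groups did not overlap. Pcsk1n was 57.8, 56.0 and 70.3 FPKM with crRNA 3, against 49.5, 48.5 and 55.0 FPKM with crRNA 1 (0.26, adjusted p = 0.0233). It did not pass without Map2 crRNA 1 replicate 1 (0.25, adjusted p = 0.0603) or 2 (0.24, adjusted p = 0.078) or without Map2 crRNA 3 replicate 3 (0.18, adjusted p = 0.168), over all alternatives 0.00368 to 0.168.

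Between Mapt crRNA 6 and Mapt crRNA 4, 0 members rose and 1 fell, where 4.48% of all genes were higher and 2.98% lower. Scg5 was lower with crRNA 6, at 111, 114 and 115 FPKM, against 129, 126 and 131 FPKM with crRNA 4 (-0.18, adjusted p = 0.0202), without overlap. The call was lost without replicate 1 of Mapt crRNA 4 (adjusted p = 0.0685), its replicate 3 (0.0772), replicate 1 of Mapt crRNA 6 (0.0746) or its replicate 3 (0.0593), with values of -0.17 to -0.20 over all alternatives. The difference of Pomc was 0.32 (adjusted p = 0.0769), with all libraries of crRNA 6 above those of crRNA 4, and it passed with only the groups compared (0.32, adjusted p = 0.0221, over all alternatives 0.0221 to 0.256). That of Scg3 was -0.10 (adjusted p = 0.0664) and passed with rescaled libraries (-0.12, adjusted p = 0.0414), with only the groups compared (-0.10, adjusted p = 0.0464) and by voom (-0.10, adjusted p = 0.048), over all alternatives 0.0414 to 0.192.

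Between Sik3 crRNA 8 and Sik3 crRNA 1 none of the 8 members passed, where 1.52% of all genes were higher and 1.09% lower. Vgf passed without Sik3 crRNA 1 replicate 3 (0.17, adjusted p = 0.0279, over all alternatives 0.0268 to 0.341). Between tdTomato crRNA 7 and crRNA 4 none of the members other than Pomc passed either, where 0.0506% of all genes passed in either direction. Pomc differed by -0.06 ± 0.18 (SE), given without a test because both groups entered its choice.

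The NT libraries of both sets had the same crRNA and nuclease, and still the members differed between them. Between NT of the N set and NT of the WT set, 3 of the tested members other than Pomc were higher and 1 was lower. Of all genes 26.5% were higher and 19.9% lower. Scg2 stood at 156, 151 and 159 FPKM in the N set, against 251, 237 and 252 FPKM in the WT set (-0.72 ± 0.031, SE, adjusted p = 4.38e-14). Chgb stood at 863, 830 and 847 FPKM in the N set, against 580, 563 and 575 FPKM in the WT set (0.53, adjusted p = 1.98e-12). Neither pair overlapped, and each difference exceeded any change of the same gene with a targeting guide in WT cells.

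Scg5 (0.28, adjusted p = 7.74e-05) and Chga (0.18, adjusted p = 0.00251) were also higher in NT of the N set. Vgf (-0.05, adjusted p = 0.359) did not pass. Pomc differed by 0.03 ± 0.12 (SE), given without a test because NT of the N set entered its choice. Scg3 (-0.08, adjusted p = 0.0643) passed without NT replicate 2 of the WT set (-0.10, adjusted p = 0.031) or NT replicate 3 of the N set (-0.11, adjusted p = 0.00781), over all alternatives 0.00551 to 0.349. Against the only NT library of the WT set that was of series LDL, as the N set was, the differences were -0.70 for Scg2, 0.56 for Chgb, 0.29 for Scg5 and 0.19 for Chga. What the sets differ in beyond the series was not tested.

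**Figure D4:**
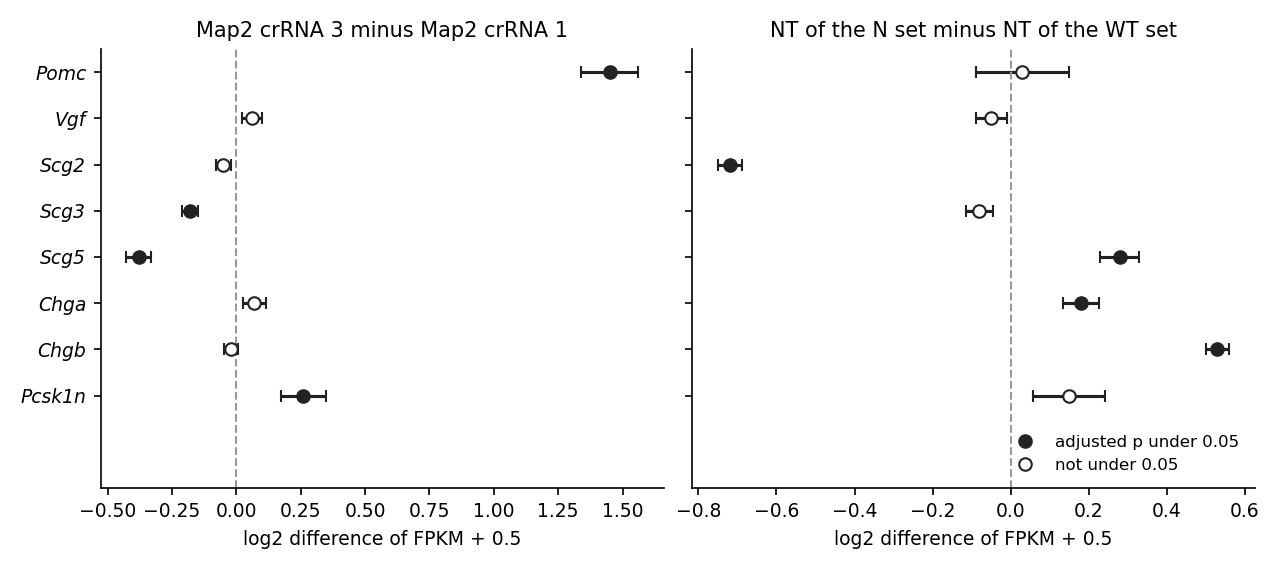
Log2 difference in FPKM + 0.5 (horizontal axes, with SE) of the 8 tested members (vertical axis) between Map2 crRNA 3 and Map2 crRNA 1 (left) and between NT of the N set and NT of the WT set (right). Filled points have an adjusted p under 0.05. Pomc is the largest difference on the left (1.45) and among the smallest on the right (0.03), where it is a description without a test.

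In the tdTomato line, where tdTomato crRNA 4 and 7 were set against 3 shared NT libraries, 5 of the 7 tested members rose with crRNA 4 and 3 with crRNA 7, and none fell. Over all 11853 genes tested, 6.46% rose and 4.28% fell with crRNA 4, and 6.72% rose and 11.3% fell with crRNA 7. The median over the 7 tested members was 0.27 with crRNA 4 and 0.20 with crRNA 7, against -0.06 and -0.13 over all genes. The 8 calls of both guides together became 3 without NT replicate 1, 4 without NT replicate 3 or without crRNA 4 replicate 2, and 5 without crRNA 4 replicate 1 or without crRNA 7 replicate 2 or 3. With the libraries rescaled, the median of all genes with crRNA 7 moved to -0.01, and Chgb (0.33, adjusted p = 0.00607) and Scg3 (0.27, adjusted p = 0.0358) passed with crRNA 7 as well.

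Vgf carried the clearest of these rises. It stood at 550, 705 and 702 FPKM with crRNA 4 and 456, 637 and 644 FPKM with crRNA 7, against 330, 458 and 473 FPKM with NT. The first library of each group, of series LDM, was the lowest, so that crRNA 7 overlapped NT over the series but not within one. Vgf rose by 0.64 ± 0.052 with crRNA 4 (SE, adjusted p = 0.000162) and by 0.46 with crRNA 7 (adjusted p = 0.000823). Within series LDK and LDM the differences were 0.60 and 0.74 for crRNA 4 and 0.46 and 0.47 for crRNA 7.

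Scg2 was 81.8, 116 and 104 FPKM with crRNA 4 and 92.5, 116 and 119 FPKM with crRNA 7, against 53.9, 89.1 and 85.5 FPKM with NT (0.42, adjusted p = 0.015, and 0.54, adjusted p = 0.00429). Series LDM was again lowest in each group, and the LDM library of crRNA 4 lay below NT libraries of series LDK. The call with crRNA 4 was lost without NT replicate 1 (0.32, adjusted p = 0.0534) and without crRNA 4 replicate 1 (0.39, adjusted p = 0.0568) or 2 (0.39, adjusted p = 0.0561), over all alternatives 0.000133 to 0.326.

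Pcsk1n, which had not passed against NT in WT cells, was 82.2, 70.6 and 66.1 FPKM with crRNA 4 and 65.7, 69.4 and 74.0 FPKM with crRNA 7, against 43.2, 59.8 and 47.4 FPKM with NT. All targeting libraries lay above all NT libraries (0.54 ± 0.13, SE, adjusted p = 0.0241, and 0.48, adjusted p = 0.0286). These calls rested on single libraries. With crRNA 4 the rise did not pass without NT replicate 1 (0.42, adjusted p = 0.11) or 3 (0.50, adjusted p = 0.0822), or without crRNA 4 replicate 1 (0.39, adjusted p = 0.0863) or 2 (0.58, adjusted p = 0.0535), over all alternatives 5.79e-05 to 0.133. With crRNA 7 it did not pass without NT replicate 1 (0.36, adjusted p = 0.123) or 3 (0.44, adjusted p = 0.0904), or without crRNA 7 replicate 1 (0.52, adjusted p = 0.0753), 2 (0.49, adjusted p = 0.068) or 3 (0.44, adjusted p = 0.0862), over all alternatives 0.000347 to 0.123.

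Chgb was 359, 551 and 525 FPKM with crRNA 4 and 289, 568 and 548 FPKM with crRNA 7, against 279, 451 and 476 FPKM with NT. The groups overlapped, and the difference of 0.26 with crRNA 4 passed narrowly (adjusted p = 0.0497). It did not pass without any 1 of the 6 libraries compared (adjusted p = 0.0663 to 0.154, over all alternatives 0.000394 to 0.691). With crRNA 7 it was 0.20 (adjusted p = 0.0931), and 0.29 without crRNA 7 replicate 1 (adjusted p = 0.0337, over all alternatives 0.00261 to 0.711).

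Chga was 60.9, 73.5 and 72.8 FPKM with crRNA 4 and 47.4, 66.1 and 65.3 FPKM with crRNA 7, against 47.3, 61.4 and 63.0 FPKM with NT. The groups overlapped between series. The difference with crRNA 4, 0.27 (adjusted p = 0.0428), likewise did not pass without any 1 of the 6 libraries compared (adjusted p = 0.0873 to 0.125, over all alternatives 0.0139 to 0.434), and that with crRNA 7 was 0.05 (adjusted p = 0.659). Scg3 and Scg5 differed by 0.13 to 0.18 with either guide and did not pass.

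**Figure D5:**
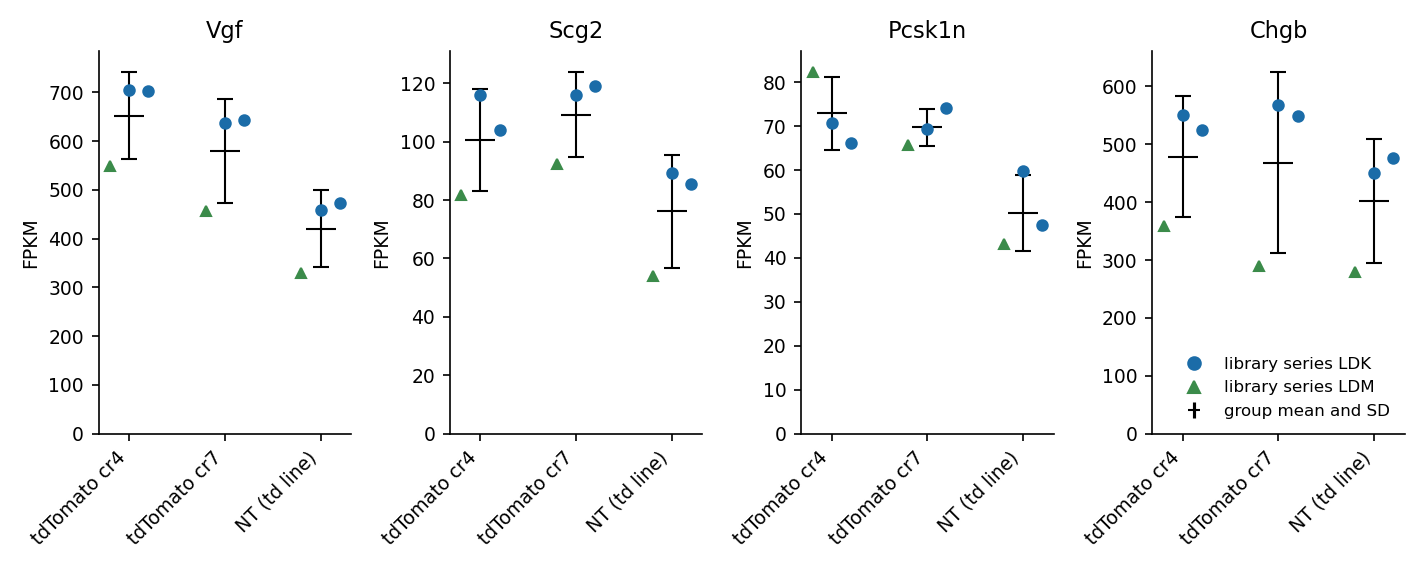
Levels in FPKM (vertical axes) of Vgf, Scg2, Pcsk1n and Chgb in the libraries of the tdTomato line with tdTomato crRNA 4, tdTomato crRNA 7 and NT (horizontal axes, left to right), with marker and colour for library series LDK and LDM and bars for the group mean and SD. For Vgf, Scg2 and Chgb the series LDM library is the lowest of each group, and for Pcsk1n all targeting libraries (65.7-82.2 FPKM) lie above all NT libraries (43.2-59.8 FPKM).

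The share of all genes called higher depended on the scaling of the libraries, which bears on the shares given above. With rescaled libraries 1780 genes rose and 2032 fell with Map2 crRNA 3, against 2291 and 1551 as deposited, and 2026 were higher and 2268 lower between the Map2 guides, against 2460 and 1681. The counts were 1950 and 2216 with Mapt crRNA 6, against 2563 and 1688 as deposited, 1775 and 1940 with Rbfox3 crRNA 3, against 2210 and 1544, 403 and 514 between the Mapt guides, against 518 and 344, and 2472 and 2892 between the NT sets, against 3063 and 2295. In the tdTomato line they were 947 and 367 with crRNA 4, against 766 and 507 as deposited, and 1241 and 553 with crRNA 7, against 796 and 1334. Under this rescaling no called member changed its direction.

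The enzymes that mature the peptides did not move as a block. Of 11 prohormone processing enzymes, 9 were tested in WT cells, and with each guide of the WT set 3 or 4 rose and 1 to 3 fell, with medians of -0.11 to 0.02. Of all genes, 19.1% to 25.8% rose and 13.4% to 23.9% fell with these guides. Cpe, the carboxypeptidase that trims the basic residues left by the convertases, rose with all 7 guides, by 0.54 with Map2 crRNA 1 and by 0.15 with Map2 crRNA 3. The last of these was lost without NT replicate 2 (0.10, adjusted p = 0.123) or Map2 crRNA 3 replicate 3 (0.13, adjusted p = 0.068), and against all 6 NT libraries of WT cells Cpe did not pass with Map2 crRNA 3, Mapt crRNA 6 or Rbfox3 crRNA 3. Pam, which amidates the ends of peptides, also rose with all 7, by 0.22 to 0.62. Neither rose with Rbfox3 crRNA 5, where Cpe differed by -0.01 and Pam by -0.10 without passing. Cpd, a carboxypeptidase of the trans-Golgi network, had the largest rise of the list with every guide of the WT set (0.79 to 1.16), and Pcsk6, a convertase of the constitutive pathway, the largest fall (-0.34 to -0.69). Of the 9, 1 rose and 2 fell with Rbfox3 crRNA 5, where 12.6% of all genes rose and 13.1% fell. Of 10 tested in the tdTomato line 1 rose and 1 fell with each guide. Over all genes there, 6.46% rose and 4.28% fell with crRNA 4, and 6.72% and 11.3% with crRNA 7.

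Of 16 genes of the granule membrane and of granule formation, 15 were tested in WT cells. The number that rose was 9 with Map2 crRNA 1 (median 0.24), 7 with Sik3 crRNA 8 and with Mapt crRNA 4, 6 with Sik3 crRNA 1 and with Map2 crRNA 3, 4 with Mapt crRNA 6 and 2 with Rbfox3 crRNA 3, and 0 to 2 fell. Over all genes 25.8% rose with Map2 crRNA 1, 21.7% with Sik3 crRNA 8, 21.8% with Mapt crRNA 4 and 23.6% with Sik3 crRNA 1. The share was 19.8% with Map2 crRNA 3, 22.2% with Mapt crRNA 6 and 19.1% with Rbfox3 crRNA 3, and 13.4% to 23.9% of all genes fell. Ptprn, a transmembrane protein of the granule, was the largest rise with Map2 crRNA 1 (0.61, adjusted p = 2.46e-10) and with both Sik3 crRNAs (0.60 with crRNA 1 and 0.56 with crRNA 8), and Ccdc186, needed to form dense-core vesicles, with Map2 crRNA 3, both Mapt crRNAs and Rbfox3 crRNA 3 (0.48 to 0.66). Under Rbfox3 crRNA 5, 1 rose and 2 fell (median -0.05), where 12.6% of all genes rose and 13.1% fell. In the tdTomato line, 1 of 14 rose with crRNA 4 and 1 fell with crRNA 7. Over all genes there, 6.46% rose with crRNA 4 and 11.3% fell with crRNA 7.

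Of 26 genes of regulated exocytosis, the machinery that fuses vesicles with the plasma membrane, 18 were tested. In the WT set 7 to 13 rose and 0 to 2 fell, where 19.1% to 25.8% of all genes rose and 13.4% to 23.9% fell, and the medians were 0.14 to 0.28, against 0.01 to 0.05 over all genes. Rab3a, a vesicle-bound small GTPase, was the largest rise with the Sik3 crRNAs (0.48 with crRNA 1 and 0.56 with crRNA 8), and Cplx2, a complexin, with Mapt crRNA 6 and Rbfox3 crRNA 3 (0.51 each). Syt5, a synaptotagmin, was the largest fall with both Sik3 crRNAs (-0.34 with crRNA 1 and -0.23 with crRNA 8), Map2 crRNA 1 (-0.39) and Mapt crRNA 4 (-0.28), and Vamp2, a vesicle SNARE, with Mapt crRNA 6 (-0.29), Rbfox3 crRNA 3 (-0.28) and Rbfox3 crRNA 5 (-0.29). Under Rbfox3 crRNA 5, 2 rose and 4 fell, where 12.6% of all genes rose and 13.1% fell. With each tdTomato guide 1 rose and 2 fell. Over all genes there, 6.46% rose and 4.28% fell with crRNA 4, and 6.72% and 11.3% with crRNA 7. Of 30 other neuropeptide precursors 5 were expressed enough to be tested in WT cells, and 0 or 1 rose and 0 to 2 fell with any guide. Over all genes 12.6% to 25.8% rose and 13.1% to 23.9% fell with these guides. Of 7 precursors tested in the tdTomato line, 0 rose with crRNA 4 and 2 with crRNA 7, where 6.46% and 6.72% of all genes rose.

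Of 18 transcriptional regulators of endocrine and neural genes, 15 were tested in WT cells, and 0 to 4 rose and 0 to 2 fell with any guide, where 12.6% to 25.8% of all genes rose and 13.1% to 23.9% fell. Of 16 tested in the tdTomato line, 1 rose with each guide and 3 fell with crRNA 7. Over all genes there, 6.46% rose with crRNA 4, 6.72% rose with crRNA 7 and 11.3% fell with crRNA 7. Insm1, a zinc-finger repressor found across neuroendocrine cells, was the largest rise of the list with Map2 crRNA 3 (0.97, adjusted p = 1.41e-10), Mapt crRNA 4 (0.46), Mapt crRNA 6 (0.78), Rbfox3 crRNA 3 (1.01, adjusted p = 4.65e-11), Rbfox3 crRNA 5 (0.97, adjusted p = 1.37e-10) and tdTomato crRNA 4 and 7 (0.87 and 0.90). The rise with Mapt crRNA 4 did not pass against all 6 NT libraries of WT cells. Insm1 stood at 21.8, 21.6 and 22.5 FPKM with Map2 crRNA 3, against 11.2, 11.5 and 12.0 FPKM with Map2 crRNA 1 (0.90, adjusted p = 2.74e-10). Insm1 was also higher in NT of the N set, at 19.0, 17.0 and 18.0 FPKM, against 11.3, 10.1 and 11.6 FPKM in NT of the WT set (0.69, adjusted p = 2.50e-08). Pomc differed there by 0.03.

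The factors known to regulate Pomc in the pituitary were low or passed the test with few guides, and their part in the level of Pomc was not tested. Tbx19 was at 0 in 23 of the 30 libraries of WT cells and reached 0.053 FPKM, and Neurod1 was at 0 in 27 of them. Tbx19 stood at 0.495 to 2.37 FPKM in the tdTomato line. Pitx1 (3.87 to 6.78 FPKM in WT cells) and the glucocorticoid receptor Nr3c1 (7.34 to 10.4 FPKM) passed against NT with no guide of WT cells. In the tdTomato line Nr3c1 stood at 6.74 to 7.63 FPKM with crRNA 4 and at 7.08 to 8.38 FPKM with crRNA 7. Its NT libraries there held 8.3 to 11.4 FPKM. With Rbfox3 crRNA 5 Pitx1 was 6.78, 6.48 and 6.40 FPKM, against 5.61, 5.20 and 4.84 FPKM in NT of the N set, without overlap. Nr4a1, the orphan receptor Nur77, rose by 0.26 with each Sik3 crRNA. Its differences with Map2 crRNA 3 (-0.19, adjusted p = 0.0463) and Rbfox3 crRNA 5 (-0.22, adjusted p = 0.0268) were lost under several alternatives. The adjusted p was 0.201 without NT replicate 6 of the WT set and 0.188 without Rbfox3 crRNA 5 replicate 3. Nr4a2, a relative of Nr4a1, ranged from 1.87 to 3.17 FPKM in WT cells and rose by 0.39 with Mapt crRNA 6 and with Rbfox3 crRNA 3. Without NT replicate 2 of the WT set these were 0.35 (adjusted p = 0.0583) and 0.36 (adjusted p = 0.0618), and they did not pass without Mapt crRNA 6 replicate 3 (0.31, adjusted p = 0.0955) and without Rbfox3 crRNA 3 replicate 2 (0.38, adjusted p = 0.0513).

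The genes whose levels were most like that of Pomc were not members. Over the 30 libraries of WT cells the highest Pearson correlations of log2(FPKM + 0.5) with Pomc among 11552 genes, predicted genes passed over, were those of Hnrnpa0 (0.948), Pcbp1 (0.940), Rbmxl1 (0.940), Hexim1 (0.928) and Eid1 (0.926). Hnrnpa0 and Pcbp1 encode RNA-binding proteins, and Hexim1 an inhibitor of the elongation kinase P-TEFb. The points share groups, series and NT libraries, so the coefficients are descriptions. After subtraction of the NT mean of the same set and series 3 of the 5, Hnrnpa0, Rbmxl1 and Hexim1, stayed among the first 5. Over the 9 libraries of the tdTomato line the same correlations were 0.742 for Hnrnpa0, 0.773 for Pcbp1, 0.918 for Rbmxl1, 0.876 for Hexim1 and 0.958 for Eid1.

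Among the members the correlation with Pomc over the WT libraries was 0.541 for Pcsk1n, 0.199 for Chgb, 0.137 for Chga, 0.058 for Vgf, -0.277 for Scg2, -0.444 for Scg3 and -0.618 for Scg5. Insm1, at 0.897, was nearer to Pomc than any member. Over the tdTomato libraries the members' correlations were 0.571 to 0.909, in libraries whose series and guide moved several members together.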

How the data were processed

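The authors took FPKM values from featureCounts gene counts of paired reads, which had been cleaned by Trim Galore and mapped by Subread (mm10), and deposited them as 1 table of 30 WT libraries and 1 of 9 tdTomato-line libraries. Strand use in counting was not given in the sources used here. The tables were normalized separately and were tested separately. Groups and library series came from the sample labels. Log2(FPKM + 0.5) was fitted with limma 3.58.1 (R 4.3.3; lmFit, and eBayes with a trend) over all libraries of a table with the series as a covariate, two-sided, with Benjamini-Hochberg adjustment over the 11554 (WT) and 11853 (tdTomato line) genes with a mean of at least 1 FPKM, the targets added, and a threshold of 0.05. A pseudocount understates changes of low genes. The steps were tested on simulated data. Depth was recovered from FPKM as whole reads, which held within 0.001 reads for 12339 of 12341 genes, and sets how precise a low member such as Pomc or Pcsk1 can be. The members and the gene lists were chosen with earlier results of these data known. From each list, the largest rise and fall per comparison were named, with Cpe, Pcsk2, Pam and the pituitary regulators of Pomc at any value. Other pseudocounts (0.1, 1), filters (a mean of 5 FPKM, none), median-of-ratios rescaling, fits without the series, with only the groups compared, with all 6 NT libraries of WT cells as 1 group or with the library number as a block, and leaving out each library were tried. voom on the recovered reads and series LDK alone were added after seeing the data. A gene of the lists is not reported here.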

Additional observations from a re-analysis of the deposited data

Results flagged for a closer look

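The change of Scg3 differed between the 2 Rbfox3 guides, each set against the NT libraries of its own set, by a test of that difference. Guide, set and NT libraries changed together and cannot be told apart. Its change with Rbfox3 crRNA 5 was lower than that with Rbfox3 crRNA 3, each against its own NT libraries, by -0.16 ± 0.045 on the log2 scale (SE, limma adjusted p = 0.0363). Scg3 was 193, 202 and 193 FPKM with Rbfox3 crRNA 5, against 212, 194 and 199 FPKM with its NT, and 221, 232 and 231 FPKM with Rbfox3 crRNA 3, against 208, 201 and 219 FPKM with its NT. The difference did not pass with rescaled libraries (-0.14, adjusted p = 0.116), with no series term (-0.16, adjusted p = 0.0679) or with only the groups compared (-0.16, adjusted p = 0.191). Nor did it pass without NT replicate 1 of the WT set (-0.16, adjusted p = 0.0636) or 2 (-0.14, adjusted p = 0.0953), NT replicate 3 of the N set (-0.13, adjusted p = 0.0711), Rbfox3 crRNA 3 replicate 2 (-0.14, adjusted p = 0.0997) or 3 (-0.17, adjusted p = 0.0619), or Rbfox3 crRNA 5 replicate 1 (-0.15, adjusted p = 0.0886) or 3 (-0.15, adjusted p = 0.0851). Over all alternatives the adjusted p ran between 0.0212 and 0.191.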

How the results depend on the processing

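Of 2608 values of members under an alternative, 2487 kept their direction and their side of the threshold, 84 lost a call, 35 gained one and 2 turned round. Those 2 were the differences with Rbfox3 crRNA 5 of Chgb (0.10) and Scg2 (-0.18) against all 6 NT libraries of WT cells, under which Insm1 with Sik3 crRNA 8 turned too (-0.06). The 5 falls in the WT set became 10 there, and the 2 rises and 2 falls with Rbfox3 crRNA 5 became 1 and 0. With only the groups compared in the fit these were 1 and 0, the 8 rises in the tdTomato line became 5 and the 3 members higher in NT of the N set became 1. The 8 became 0 without the series term and 4 in series LDK alone. With no filter the 2 falls with Rbfox3 crRNA 5 became 1. After rescaling, 1 member rose and 5 fell between guides of a target in WT cells (2 and 3 as reported), and 2 were lower in NT of the N set (1 as reported). voom on recovered reads gave 5 such falls. Leaving out 1 library gave 26 to 28 rises and 5 to 6 falls in the WT set, 2 rises and 1 to 2 falls with Rbfox3 crRNA 5, 3 to 8 rises in the tdTomato line, 1 to 3 rises and 2 to 3 falls between guides, and 3 higher and 1 to 2 lower members between the NT sets. The causes were not tested.

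Each targeting library was compared with the NT library of the same set, series and, where the names gave one, number. The correlation of their deviations passed 0.1 in 13 of 30 pairs (-0.015 to 0.292). The pairs of series LDL in the WT set and of series LDM shared no number. They held the highest correlations (0.237 and 0.292). In the N set, where every pair shared a number, 0 of 3 passed 0.1 (0.003 to 0.054). The total of 13 therefore does not decide whether the numbers pair libraries. With the number as a replicate block, 27 members rose and 5 fell in the WT set and 6 rose in the tdTomato line (8 as reported). With 3 libraries a group and 24 to 167 Pomc reads per tdTomato library, small changes of low genes were not detectable.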

Other observations

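The number of exons was looked at after the genes most like Pomc had been seen, and is given as a description. Of those 5 genes, Hnrnpa0, Pcbp1, Hexim1 and Eid1 have 1 exon in every annotated transcript, as Insm1 has, against 3.9% of the 11321 tested genes with an exon count, while Pomc has up to 4. The median log2 difference against NT of the 441 genes with 1 exon was 0.49 with Rbfox3 crRNA 5 and 0.43 with Rbfox3 crRNA 3, against -0.00 and 0.03 for the other 10880 genes. It was 0.25 with Map2 crRNA 3 and 0.06 with Map2 crRNA 1, against 0.03 and 0.02 for the others. With Sik3 crRNA 1 and 8 it was 0.09 and 0.25, against 0.02 and 0.00, and with Mapt crRNA 4 and 6 it was 0.15 and 0.28, against 0.03 and 0.04. In the tdTomato line it was 0.43 with crRNA 4 and 0.34 with crRNA 7 for 513 such genes, against -0.07 and -0.15 for the other 11100.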
